A study of Canis lupus familiaris with 23 samples.

Results

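This set holds the genes whose level in every canine acanthomatous ameloblastoma (CAA) was above their level in every canine oral squamous cell carcinoma (COSCC). It comprised 84 of 15716 genes tested, out of 30951 in the table. Genes were chosen on the values themselves. Levels are given as CPM, each gene's count as a share of the library after scaling by a composition factor (trimmed mean of M values, TMM). A gene entered when its mean was at least 10 CPM in CAA and its lowest CAA library exceeded its highest COSCC library. Such a separation was met by 121 genes (0.770% of those tested), and 90 of these reached the minimum level. From the 90, 2 genes were left out because all 16 tumors lay below all 7 gingiva libraries, and 4 because they are among 6 identifiers that the rule leaves out by name. The remaining conditions removed 0 genes: all tumors above gingiva, at most 3 counts in every gingiva library, or a place among the 100 genes with the highest mean in gingiva.

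CAA is a tumor of odontogenic epithelium, the epithelium that takes part in forming teeth; it invades the jaw locally and is not usually metastatic. COSCC is a malignant tumor of the squamous epithelium that lines the mouth, and it can metastasise. Gingiva is the mucosa around the teeth, a keratinised epithelium over connective tissue. The files pair none of their Ensembl identifiers with a gene name, and 0 of the identifiers occur in the RefSeq gene table used here. Members are therefore described by level and pattern, a few of them by identifier, and no function, position or sequence is given for any gene. For the same reason the labelled tissues were not checked against marker genes.

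RNA was measured by bulk sequencing in 5 CAA, 11 COSCC and 7 samples of healthy gingiva, all from dogs. The CAA dogs were an Australian Shepherd, a Boxer, a Great Dane and 2 Labrador Retrievers. The carcinomas came from mixed-breed dogs and from an Alaskan Malamute, a Boxer, a Dachshund, a Labradoodle, a Yorkshire Terrier and 2 Labrador Retrievers. The gingiva came from mixed-breed dogs, a Staffordshire Bull Terrier, a Catahoula Leopard Dog and 2 Labrador Retrievers. The maxilla was the site of 3 CAA and 7 COSCC, the mandible that of 2 CAA and 4 COSCC. The jaw was not determined for 6 of the 7 gingiva samples. Ages and treatments are not given in the sources used here. All samples are also labelled FS or MC, a code left unexplained there. The labels list the samples of a group separately without saying whether each is another dog, and p-values measure the spread between these samples only.

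Total counts ran from 15120326 to 16813220 per library. TMM factors averaged 1.15 ± 0.106 in CAA (SD, n = 5), 1.03 ± 0.140 in COSCC (SD, n = 11) and 0.887 ± 0.104 in gingiva (SD, n = 7). In a bulk sample, fewer cells of a type and less RNA per cell cannot be told apart.

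The 84 genes together took 0.999% ± 0.166 of all counts in CAA (SD, n = 5), 0.321% ± 0.0613 in COSCC (SD, n = 11) and 0.410% ± 0.0773 in gingiva (SD, n = 7). Their mean level in CAA ran from 10.7 to 1198 CPM with a median of 56.6 CPM. In COSCC the median of their means was 19.4 CPM, and in gingiva 27.1 CPM. The ratio of the CAA mean to the COSCC mean had a median of 2.74 and ran from 1.31 to 48.8. It was at least 2 in 58 genes, at least 4 in 28 and at least 8 in 13. In 26 genes the CAA mean was thus less than 2 times the COSCC mean. These ratios are what the genes were chosen for and are given as a description.

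In most members little room separated the tumors. The lowest CAA library stood above the highest COSCC library by a median ratio of 1.16, by less than 1.1 in 31 genes and by at least 2 in 4 genes. The 3 members nearest to the limit had ratios of 1.0056, 1.0064 and 1.0065, with lowest CAA values of 66.3, 80.4 and 77.4 CPM. The 3 genes just outside it had ratios of 0.9976, 0.9958 and 0.9924. At the limit on level, the lowest members averaged 10.7, 10.7 and 10.8 CPM in CAA and the nearest genes outside 9.75, 9.09 and 8.68 CPM. Of the 84, 82 had an edgeR adjusted p under 0.05 for CAA against COSCC, all higher in CAA, where 4.09% of all genes were called higher and 4.63% lower. The members were chosen on this contrast, so that nothing is read from that count.

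**Figure D1:**
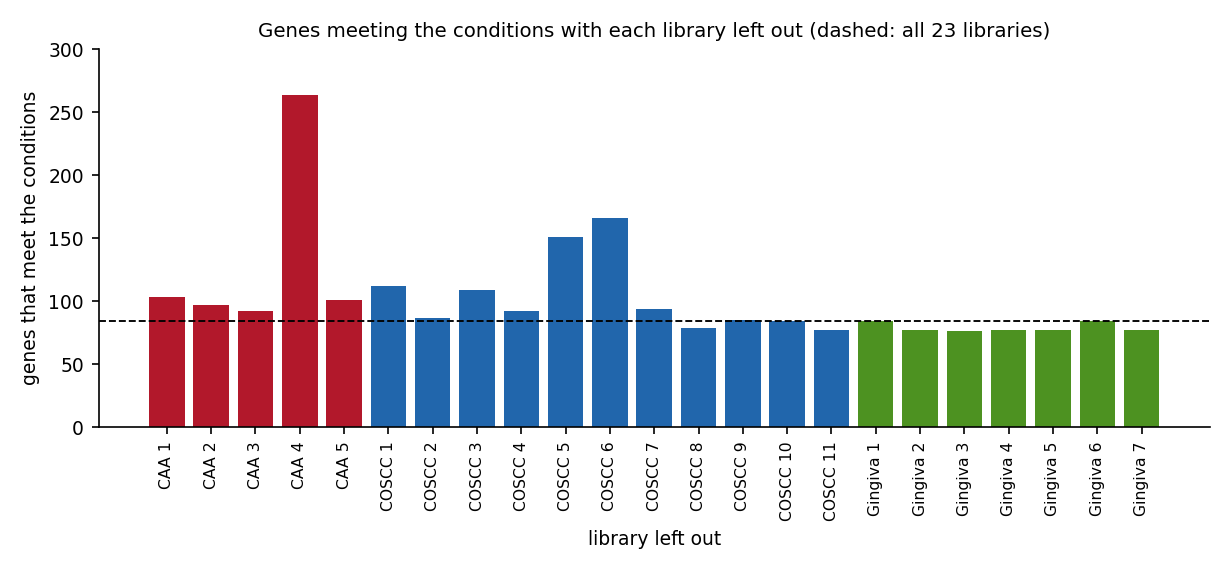
Number of genes that meet the same conditions (vertical axis, starting at 0) when 1 of the 23 libraries is left out (horizontal axis; red CAA, blue COSCC, green gingiva), with the dashed line at the 84 genes found with all libraries. The count reached 264 without CAA replicate 4, 166 without COSCC replicate 6 and 151 without COSCC replicate 5. Leaving out a tumor library can only loosen the separation of the tumors, apart from shifts in scaling and filtering.

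Which genes entered depended on single libraries. Leaving out a tumor library can only loosen the separation of the tumors, apart from shifts in scaling and filtering. A higher count is thus built in, and only its size tells libraries apart. CAA replicate 4 was the lowest ameloblastoma in 34 of the 84 genes and the highest in 1. CAA replicate 3 was the highest in 37 and CAA replicate 5 in 24. Without CAA replicate 4 the conditions were met by 264 genes, 82 of them among the 84. Its TMM factor, 0.980, was the lowest of the CAA libraries, the next being 1.12, and its share of counts in the members was also the lowest before any such scaling, at 0.731% against 0.996% to 1.14% in the other CAA libraries. Dividing by a lower factor raises CPM. After scaling, the 84 genes still summed to less in CAA replicate 4, 7460 CPM, than in the other CAA libraries, 8052 to 10118 CPM. The part of the factor in the count of 264 was not tested.

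Among the carcinomas, COSCC replicates 5, 6, 1 and 3 were most often the highest, in 20, 16, 14 and 13 genes, 63 of the 84 together, while COSCC replicate 11 was highest in 1 gene. COSCC replicates 5 and 6 were each the lowest carcinoma in 1 gene, but replicate 3 was the lowest in 13 and replicate 1 in 6. Without COSCC replicate 5 the conditions were met by 151 genes and without replicate 6 by 166. Both cases included all 84, which the loosened separation favours. In 6 genes a single carcinoma was at least 2 times as high as the next. Membership also moved with the scaling: with library totals and no composition factor 89 genes met the conditions, 57 of them among the 84.

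Members were sorted by their calls against gingiva, higher in CAA or lower in COSCC. The rule used gingiva only to leave genes out. All 3 groups entered a model across all genes (edgeR quasi-likelihood), in which a gene was called at an adjusted p under 0.05. Against gingiva, 46 of the 84 members were higher in CAA and 0 were lower, where 13.8% of all genes were called higher and 10.8% lower. At an unadjusted p under 0.05, 1 member was lower in CAA. DESeq2, limma voom, median-of-ratios factors, a block for the replicate number and a fit of 2 groups each called 1 lower. Without gingiva replicate 3, 2 were called lower. By the same rule 27 were lower and 3 higher in COSCC than in gingiva, against 13.5% of all genes lower and 20.1% higher. The 3 genes higher in COSCC were also among the 46. In edgeR no gene passed the threshold in both directions, higher in CAA and lower in COSCC, and the 11 genes left passed neither test. This depended on the method. With limma voom 62 of the 84 were called higher in CAA and 43 lower in COSCC, so that some passed in both directions. Of all genes, limma voom called 6929 in CAA against gingiva and 6696 in COSCC against gingiva, both directions together. Members had to be high in CAA and low in COSCC to enter, and both comparisons share the gingiva libraries, so the counts are a description of how the 84 genes lie around gingiva.

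The median log2 fold change of the 84 genes was 0.88 for CAA against gingiva, where all genes had a median of 0.04, and -0.39 for COSCC against gingiva, where all genes had 0.14. For 53 of the 84 the gingiva mean lay between the means of the tumors. It was below the COSCC mean in 22 and above the CAA mean in 9. The calls thus cut through graded differences. Of the 43 genes called higher in CAA only, 24 had a log2 fold change below 0 in COSCC. Of the 27 called lower in COSCC, 18 had a log2 fold change above 0 in CAA. With scaling by library totals only, the medians of all genes moved to 0.41 for CAA and 0.35 for COSCC. With that scaling 61 members were called higher in CAA than in gingiva, and in COSCC 16 were called lower and 8 higher. The calls over all genes moved too. In CAA 3965 genes were then called higher, against 2163 with TMM. In COSCC 5508 were called, 4462 of them higher, against 5290 and 3162 with TMM.

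**Figure D2:**
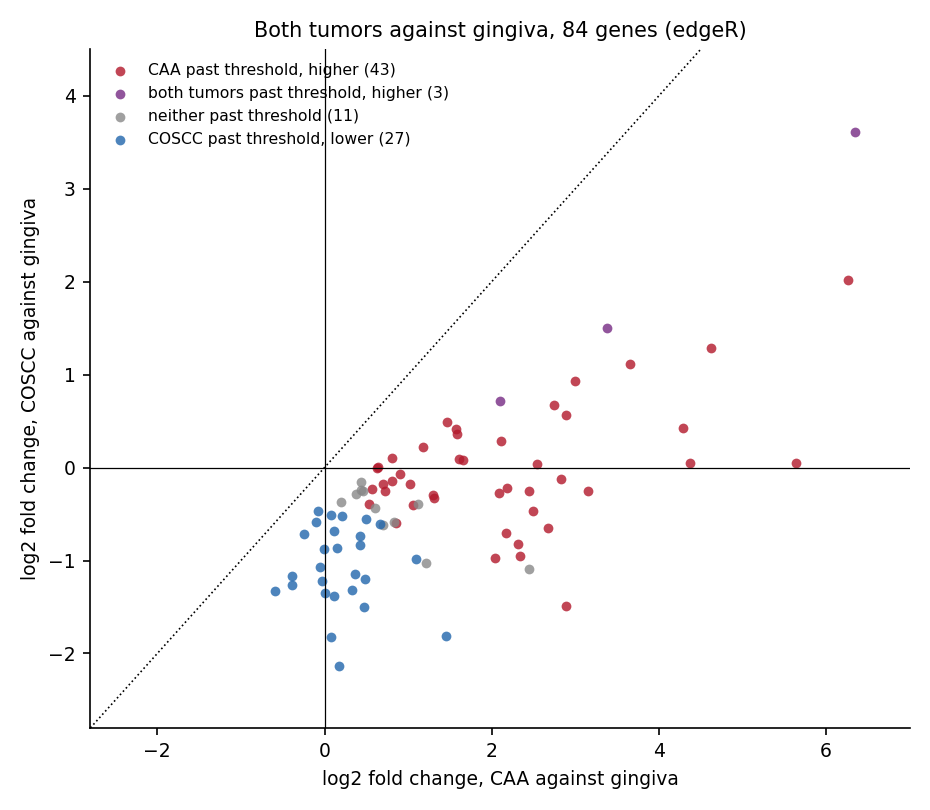
Log2 fold change of each of the 84 genes in CAA against gingiva (horizontal axis) and in COSCC against gingiva (vertical axis), both from edgeR, with a dotted line where both are equal. The 43 red and 3 purple points passed the threshold for CAA and spread to the right, up to 6.34; the 27 blue points lie below 0 for COSCC, down to -2.14, and between -0.60 and 1.45 for CAA; grey marks the 11 genes past neither.

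**Figure D3:**
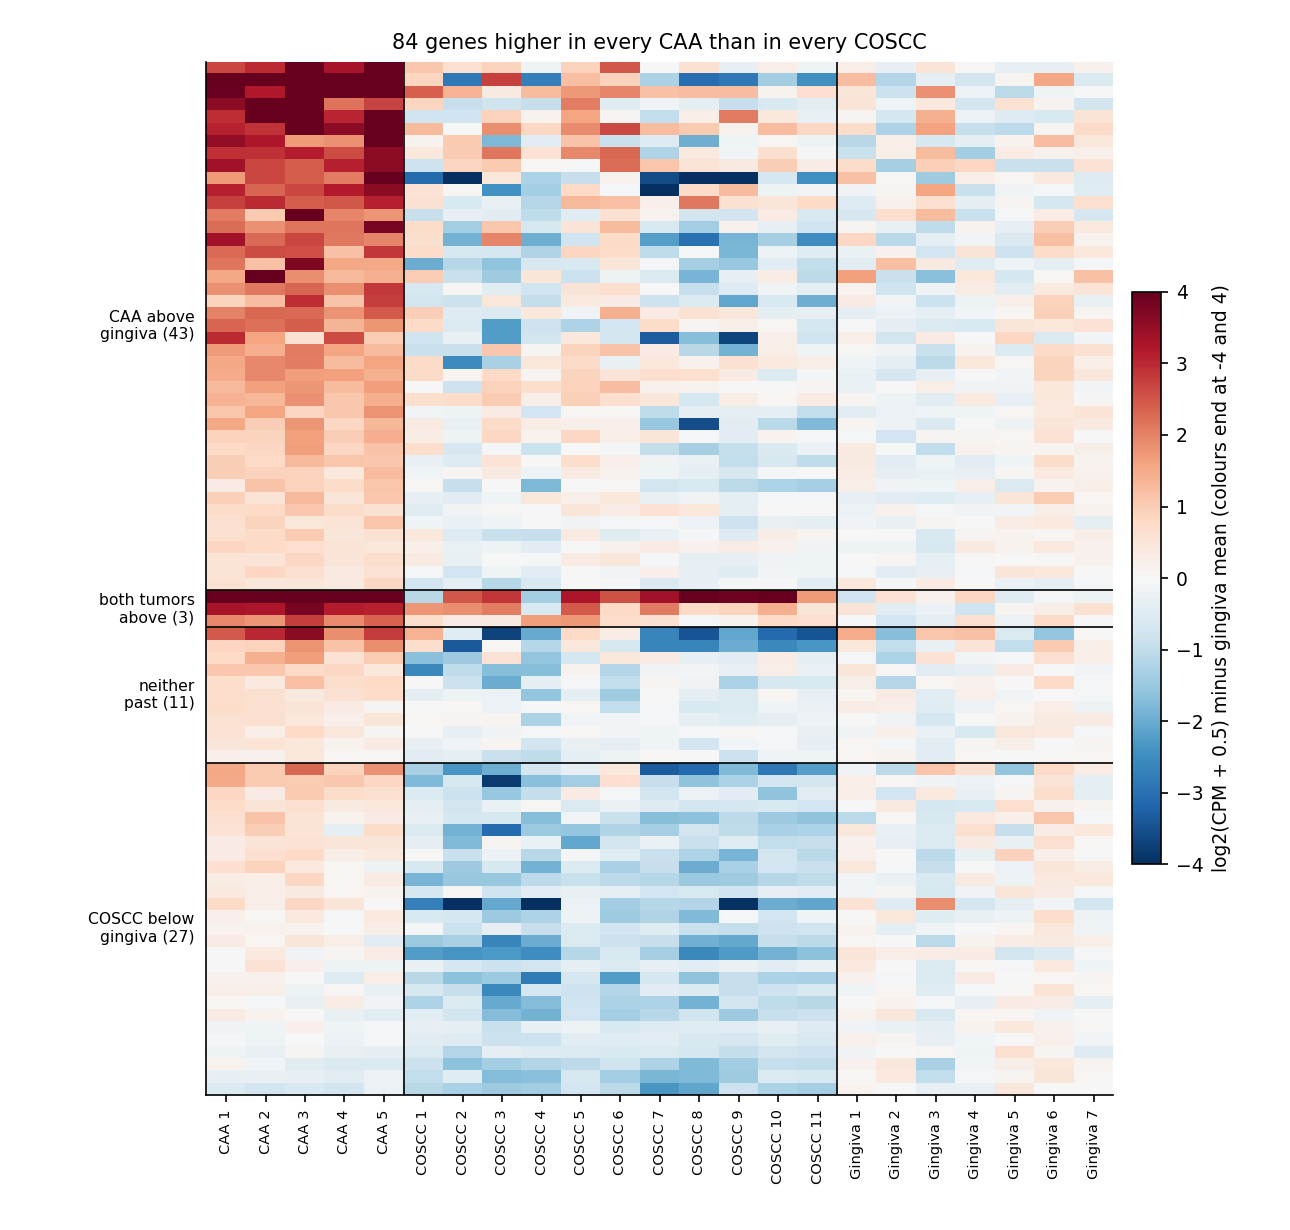
Level of the 84 genes (rows) in the 23 libraries (columns), as log2(CPM + 0.5) minus the gingiva mean of the gene, red above and blue below gingiva; rows are grouped by the call against gingiva, with the number of genes in brackets. Red fills the CAA columns of the 46 genes called higher in CAA, and blue prevails in the COSCC columns of the 27 genes called lower in COSCC, where the CAA columns are mostly paler.

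The 46 genes higher in CAA than in gingiva held the largest differences between the tumors, but the sets overlapped. In the 43 of them that did not pass in COSCC, the CAA mean was a median of 4.18 times the COSCC mean (1.55 to 48.8). This ratio was 2.23 (1.31 to 9.67) in the 27 genes lower in COSCC and 2.06 (1.48 to 11.7) in the 11 past neither. In the same 43 genes, the CAA mean was a median of 4.26 times the gingiva mean (1.45 to 80.3), and the COSCC mean 0.918 times (0.355 to 4.16). Each of the 46 stood above its gingiva mean in all 5 CAA libraries. Their median log2 level relative to gingiva was 1.57 to 2.12 in the CAA libraries, -0.42 to 0.50 in the COSCC libraries and -0.25 to 0.39 in the gingiva libraries. COSCC and gingiva overlapped in these medians. That CAA lay above both follows from how the 46 genes were chosen. In COSCC replicates 5 and 6, 34 of the 46 were above the gingiva mean, and in COSCC replicates 2 and 11 13 were. Within gingiva the level of the members moved with the TMM factor. Replicates 2 and 3, with the lowest factors (0.760 and 0.775), had the lowest median levels of all 84 genes relative to the gingiva mean (-0.13 and -0.35 on the log2 scale), and replicates 1 and 6, with the highest factors (0.996 and 1.04), had the highest (0.10 and 0.37). Before any scaling the members' share of counts was also lowest in gingiva replicates 3 and 2 (0.320% and 0.337%). It was highest in replicates 1 and 6 (0.478% and 0.540%). Dividing by a lower factor raises CPM. Between factor and median level the Pearson correlation was 0.90 in gingiva (n = 7) and 0.30 in COSCC (n = 11). The cause of this relation was not tested.

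Over all genes, 8.94% had every CAA library above every gingiva library. Of the 84 members, 41 did, 35 of them among the 43 and 3 among the genes higher in both tumors. The other 3 were 1 of the 27 genes lower in COSCC and 2 of the 11 that passed neither test.

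The 27 genes lower in COSCC than in gingiva differed less between the tumors, at the median, than the 43 higher in CAA only. Their COSCC mean was a median of 0.476 times the gingiva mean (0.228 to 0.724), while the CAA mean was 1.08 times the gingiva mean (0.661 to 2.73). Their median log2 level relative to gingiva was -1.47 to -0.58 in the COSCC libraries, 0.07 to 0.37 in the CAA libraries and -0.58 to 0.36 in the gingiva libraries. CAA and gingiva overlapped in these medians. That COSCC lay below CAA, and low against gingiva, follows from how the 27 genes were chosen. The highest carcinoma, replicate 5, was at the level of the lowest gingiva library, replicate 3. At most 2 of the 27 genes were above the gingiva mean in any carcinoma. The medians of their group means were 84.9 CPM in CAA, 30.0 in COSCC and 65.2 in gingiva, against 52.3, 17.2 and 15.1 CPM for the 43 genes higher in CAA only. The calls against gingiva themselves set the gingiva levels of these groups of genes apart.

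Every carcinoma lay below every gingiva library in 5 of the 84 members and in 1.55% of all genes. All 5 were among the 27. No member had gingiva lying wholly between the tumors: 41 had CAA above all gingiva, 5 had COSCC below all gingiva and 38 had neither. Among the 9290 genes that met every condition other than the separation of the tumors, these shares were 8.82%, 0.495% and 90.7%, and 0 genes had both. The identifiers left out by name are not among the 9290 either.

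**Figure D4:**
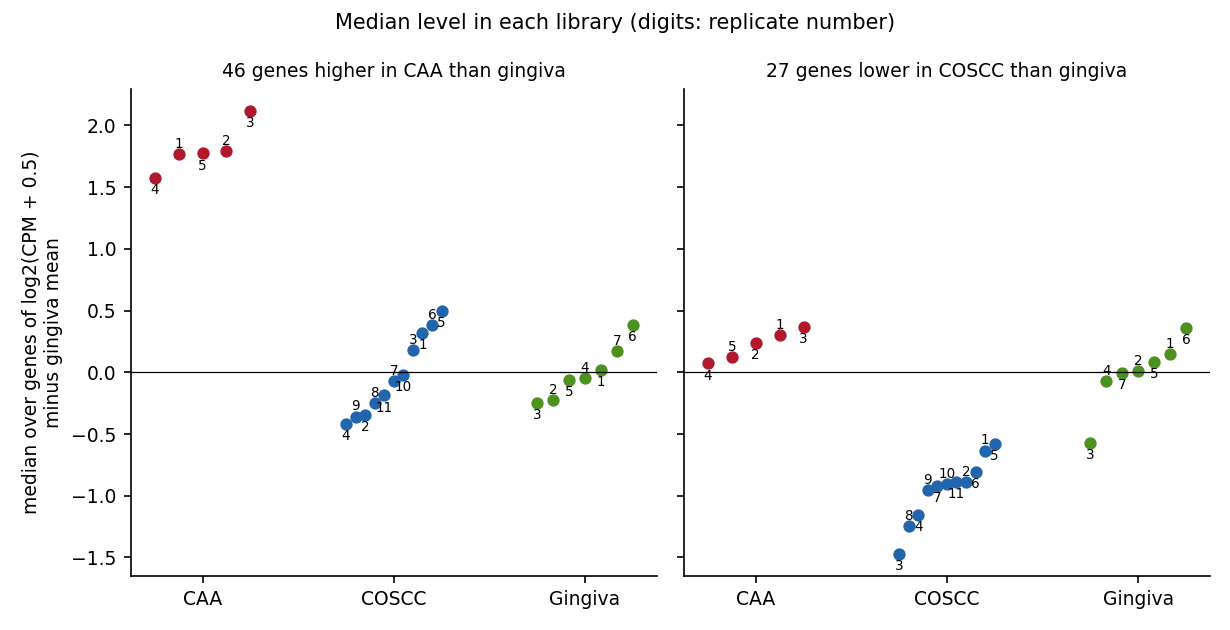
Median over genes of log2(CPM + 0.5) minus the gingiva mean in each library, for the 46 genes called higher in CAA than in gingiva (left) and the 27 called lower in COSCC (right); points are libraries, with replicate numbers. On the left COSCC and gingiva share a range around 0 with CAA at 1.57 or above; on the right CAA and gingiva share a range and COSCC lies at -0.58 or below.

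Of the members named here for their size of difference, adjusted p-values are those of the model across all genes, and are not independent of how the members were chosen. The 2 members with the largest rise in CAA over gingiva were ENSCAFG00000010628 and ENSCAFG00000017109. ENSCAFG00000010628 had 86.0, 37.3, 128.8, 51.7 and 66.2 CPM in CAA replicates 1 to 5. In COSCC it ran from 0 to 26.7 CPM with a median of 9.12, and in gingiva from 0.261 to 1.85 CPM with a median of 0.739. Every CAA library was above every other library. Of the carcinomas, 9 were above all gingiva, while COSCC replicates 1 and 4, with 2 and 0 counts, were below all gingiva. Its log2 fold change was 6.34 ± 0.94 in CAA against gingiva (SE, edgeR adjusted p = 0.000177) and 3.61 ± 0.80 in COSCC against gingiva (SE, edgeR adjusted p = 0.00230). The COSCC value did not pass with limma voom, at 2.90 (adjusted p = 0.0557). It is 1 of the 3 members higher in both tumors.

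ENSCAFG00000017109 is a gene of low level. It had 3.55, 4.45, 10.6, 5.67 and 34.9 CPM in CAA replicates 1 to 5. In COSCC it ran from 0 to 3.05 CPM with a median of 0.469, and in gingiva from 0 to 0.410 CPM with a median of 0.148. The gingiva values rest on 14 counts in all 7 libraries, 3 of which had no count. Every CAA library was above every other library, and COSCC overlapped with gingiva. The log2 fold change was 6.26 ± 1.07 in CAA against gingiva (SE, edgeR adjusted p = 0.000473) and 5.30 without CAA replicate 5 (edgeR adjusted p = 0.00261). For COSCC against gingiva it was 2.01 ± 0.89 and did not pass (SE, edgeR adjusted p = 0.0837), although DESeq2 gave an adjusted p of 0.0412.

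The 2 members with the largest fall in COSCC below gingiva were ENSCAFG00000015908 and ENSCAFG00000014319. ENSCAFG00000014319 had 167.0, 213.7, 148.3, 175.0 and 199.4 CPM in CAA replicates 1 to 5. In COSCC it ran from 27.04 to 106.6 CPM with a median of 34.0, and in gingiva from 98.9 to 226.5 CPM with a median of 195.7. CAA lay inside the gingiva range, and COSCC lay below it except that COSCC replicate 6 exceeded gingiva replicate 5. The log2 fold change was -1.82 ± 0.25 in COSCC against gingiva (SE, edgeR adjusted p = 4.07e-05) and 0.08 ± 0.31 in CAA against gingiva (SE, edgeR adjusted p = 0.869).

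ENSCAFG00000015908 varied more. It had 126.9, 88.4, 132.0, 105.6 and 74.8 CPM in CAA replicates 1 to 5. In COSCC it ran from 2.57 to 64.2 CPM with a median of 17.9, and in gingiva from 44.5 to 271 CPM with a median of 58.5. COSCC replicate 5 held the highest carcinoma value, above 4 gingiva libraries, and gingiva replicate 3 the highest gingiva value. The log2 fold change was -2.14 ± 0.51 in COSCC against gingiva (SE, edgeR adjusted p = 0.00352). Without gingiva replicate 3 it was -1.60 (edgeR adjusted p = 0.0127). In CAA against gingiva it was 0.18 ± 0.62 (SE, edgeR adjusted p = 0.860).

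The widest gaps between the lowest CAA and the highest COSCC library were in ENSCAFG00000004935 and ENSCAFG00000010034. ENSCAFG00000004935 had 174.7, 301.6, 390.2, 84.4 and 224.4 CPM in CAA replicates 1 to 5, and its lowest CAA value was 3.14 times the highest COSCC value. In COSCC it ran from 0 to 26.9 CPM with a median of 1.08, the highest being in replicate 3 and the next, 8.94, in replicate 5. In gingiva it ran from 1.31 to 11.6 CPM with a median of 2.63. COSCC and gingiva overlapped, and every CAA library was above both. The log2 fold change of CAA against gingiva was 5.64 ± 1.19 (SE, edgeR adjusted p = 0.00219). The log2 fold change of COSCC against gingiva was 0.05 ± 0.89 (SE, edgeR adjusted p = 0.974), and it was -2.42 with limma voom (adjusted p = 0.0275), so that its direction depended on the method. It also depended on single libraries: without COSCC replicate 3 it was -0.84 (edgeR adjusted p = 0.431), and leaving out single libraries gave values from there to 0.45, none of them past the threshold.

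ENSCAFG00000010034 had 103.3, 202.9, 170.1, 133.2 and 711.2 CPM in CAA replicates 1 to 5, with a gap ratio of 2.38. In COSCC it ran from 0.345 to 43.3 CPM with a median of 5.39, and in gingiva from 11.4 to 71.9 CPM with a median of 33.3. Every CAA library was above every gingiva library, and 5 of the 11 carcinomas were within the gingiva range. Its log2 fold change in CAA against gingiva was 2.88 ± 0.87 (SE, edgeR adjusted p = 0.0193). Without CAA replicate 5 it was 2.09 and did not pass (edgeR adjusted p = 0.102). In COSCC against gingiva it was -1.49 ± 0.69 (SE, edgeR adjusted p = 0.0985), and without COSCC replicate 3 it was -1.89 and passed (edgeR adjusted p = 0.0375). With all libraries it also passed in limma voom, at -2.59 (adjusted p = 0.00243).

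**Figure D5:**
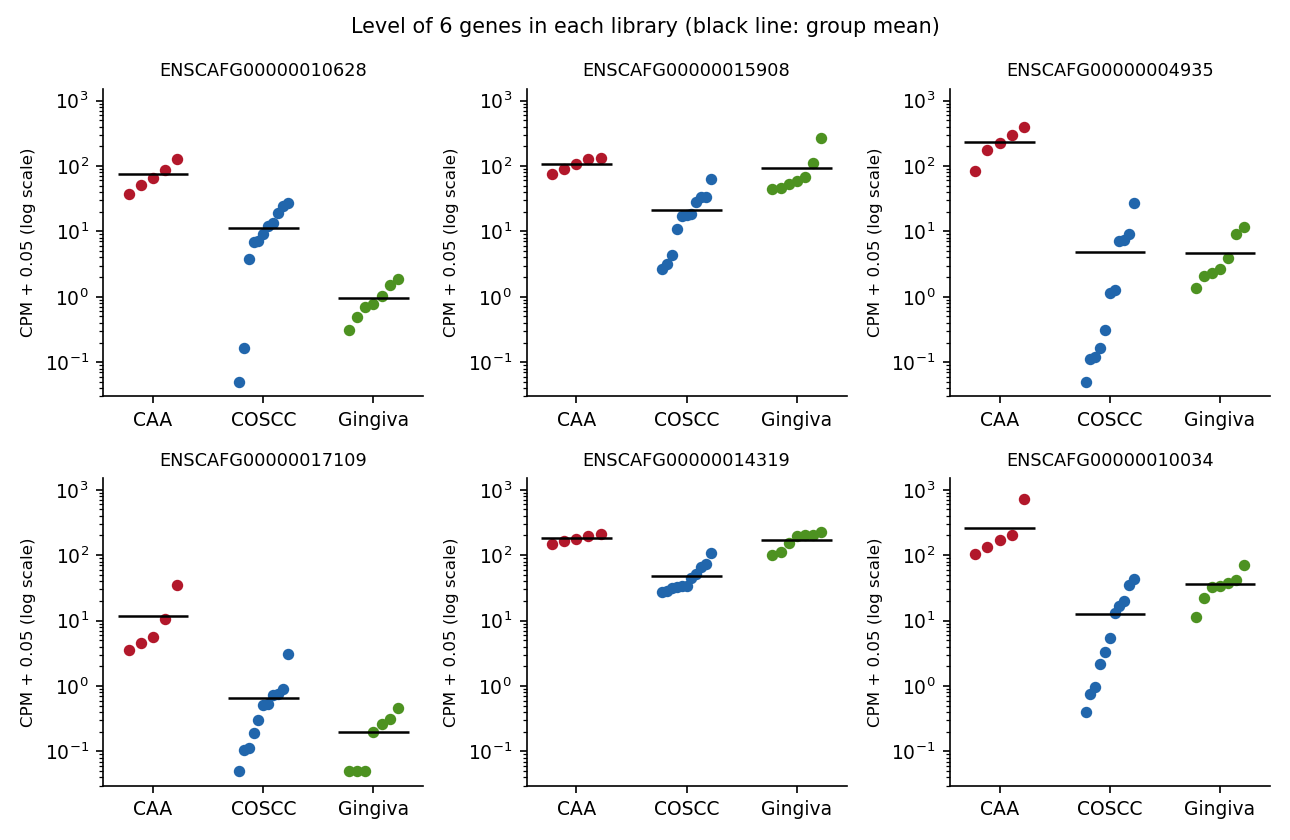
CPM + 0.05 on a log scale for the 6 genes named in the text, in CAA (red), COSCC (blue) and gingiva (green); points are libraries in order of value and black lines group means. In ENSCAFG00000014319 and ENSCAFG00000015908 CAA and gingiva overlap, with the highest COSCC library within the gingiva range, and in the other 4 genes CAA stands above gingiva.

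The spread between libraries in these genes was widest in the carcinomas. The ratio of the highest to the lowest library, after adding 0.5 CPM, had a median of 3.84 over the 84 genes in COSCC, 1.71 in CAA and 2.53 in gingiva. It was at least 10 in 14 genes in COSCC and in 0 genes in CAA or gingiva; the groups differ in size, and a larger group gives a wider range. The SD of log2 CPM is not widened by group size in this way. Its median over the members was 0.63 in COSCC, 0.31 in CAA and 0.49 in gingiva. Over the 9290 genes that met the other conditions it was 0.50, 0.34 and 0.38. The rule itself favours a narrow CAA range. In 6 members at least 1 carcinoma had no count.

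The jaw of origin and the code had no part in choosing the members and were tested across all genes. In the 16 tumors, with tumor type in the model, 0 of the 84 members differed between mandible and maxilla in edgeR, as did 0% of 15331 genes tested (0 genes in each direction). At an unadjusted p under 0.05, 0 members were higher and 1 lower in the mandible, where 3.14% and 2.25% of all genes were. DESeq2 and limma voom also called 0 members, and 38 and 0 genes in all. The fitted differences of members ran from -1.07 to 1.24 on the log2 scale with a median of -0.03. The median level of the 84 genes relative to gingiva was 0.74 and 0.93 in the 2 mandibular CAA and 0.85 to 1.05 in the 3 maxillary CAA. It was -0.76 to -0.02 in the 4 mandibular COSCC and -0.59 to -0.08 in the 7 maxillary COSCC. The jaws overlapped in both tumors, and CAA was above COSCC in each jaw, as the rule requires.

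The effect of jaw was also compared between the tumor types by an interaction term. It was called in 0 of the 84 members and in 0 of 15331 genes (edgeR), with 2 members at an unadjusted p under 0.05, where 7.66% of all genes were. For the code, with the group in a model of all 23 libraries, 0 of the 84 members and 0% of 15716 genes passed in edgeR. At an unadjusted p under 0.05 there were 1 member higher and 1 lower with MC, where 2.35% and 2.72% of all genes were. DESeq2 and limma voom called 0 members, and 2 and 0 genes in all. With 2 mandibular ameloblastomas the interaction rests on few samples. The interval of the jaw term, fitted over all tumors with tumor type in the model, can also be wide. In ENSCAFG00000004935, the member with the largest fitted difference, the mandible exceeded the maxilla by 1.24 ± 1.06 on the log2 scale (SE, edgeR adjusted p = 0.897). Its CAA values were 301.6 and 84.4 CPM in the mandible and 174.7, 390.2 and 224.4 CPM in the maxilla. In COSCC, mandibular replicates 2 to 5 had 0.0611, 26.9, 0.113 and 8.94 CPM, and the maxillary ones 0 to 7.34 CPM.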

How the data were processed

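Total RNA depleted of ribosomal RNA was sequenced from directional libraries, per the labels' protocols. The authors deposited raw counts per Ensembl gene in 23 columns, matched to samples by library name (0 columns unmatched). The submitters' processing notes name STAR and canFam3; the counting program, its use of strand and the annotation release are not given in the sources used here, so that near-identical or overlapping genes may be counted uncertainly.

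Tests on the counts used edgeR 4.0.16 under R 4.3.3 (filterByExpr by group, TMM factors, glmQLFit and glmQLFTest) on all 23 libraries, Benjamini-Hochberg adjustment running over all genes tested. For jaw the 16 tumors entered with tumor type as a term, for the code all libraries with group as a term. Standard errors are approximate, dividing each absolute log2 fold change by the root of its F statistic. The procedure was also run on counts simulated with its own fitted spread and without composition factors. That run cannot show how composition or single libraries act here, and no result is read from it.

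Alternatives were DESeq2 1.42.0, median-of-ratios factors, voom in limma 3.58.1 with quality weights per sample, library totals, no low-count filter, fits of 2 groups, a block for the replicate number, the code as a covariate, and each library left out. The interaction of jaw and tumor type was added after seeing the data. Members and comparisons were chosen with earlier results of these data known. Genes were named by rule: the 2 largest rises in CAA over gingiva, the 2 largest falls in COSCC below gingiva and the 2 widest gaps between the tumors. Planned gene and marker lists were not used, since no identifier could be paired with a name. Same-numbered samples of different groups were checked for pairing: 5 of 17 pairs had a correlation over 0.1 between their deviations from the group means, so the numbers were not treated as pairs.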

Additional observations from a re-analysis of the deposited data

Results flagged for a closer look

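For a single library far from the rest of its group, 24 sets of CAA or gingiva values were checked against Dixon's limit. The limit was passed in 3, and about 1.2 would do so by chance. ENSCAFG00000010034 reached 711.2 CPM in CAA replicate 5, the next CAA library having 202.9 CPM. ENSCAFG00000017109 reached 34.9 CPM in the same library, the next having 10.6 CPM. ENSCAFG00000015908 reached 271 CPM in gingiva replicate 3, the next gingiva library having 112.6 CPM. All are identifiers chosen for large differences, and the 11 carcinomas were not examined in this way.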

How the results depend on the processing

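The count of members higher in CAA than in gingiva (46) stayed within 1.5 times under all alternatives, as a total of 37 to 49 when single libraries were left out and 42 to 63 otherwise. Calls over all genes moved as well. They were 3862 as reported, 3428 without the low-count filter (42 members) and 6929 with limma voom (63 members). For COSCC against gingiva (30) leaving out single libraries gave 27 to 34, and limma voom moved the count to 46, 43 of them lower. Library totals gave 24, within 1.5 times as a total. The directions moved further, with 16 lower and 8 higher against 27 and 3 as reported. Of all genes, limma voom called 6696 in this contrast and library totals 5508, against 5290 as reported. For CAA against COSCC (82) leaving out single libraries gave 56, without CAA replicate 3, to 84, and the replicate block moved the count to 39. Of all genes, 1371 were called as reported, 270 without CAA replicate 3 and 154 with the block. The labels do not say that the numbers pair dogs, and of 34 comparisons a library correlated best with its own number in 5. In the other contrasts the block gave 47 (CAA, gingiva) and 26 (COSCC, gingiva), each within 1.5 times, with 3458 and 3369 of all genes called. For jaw and code the count was 0 under every alternative run, single CAA libraries left out included. The number of genes found by the conditions was 48 with a minimum of 50 CPM and 76 to 264 with single libraries left out. With library totals it was 89, of which 57 are among the 84. Of 539 recomputed fold changes of the named genes, 525 kept direction and side of the threshold, 10 lost and 3 gained it, and 1 reversed (ENSCAFG00000004935 in COSCC against gingiva, -2.42 with limma voom). For CAA against COSCC, ENSCAFG00000010628 lost the threshold in 4 of 30 alternatives: without CAA replicate 3 or 5 (edgeR adjusted p 0.0841 and 0.0515), with only both groups in the fit (0.0600) and with the block (0.0923). ENSCAFG00000015908 lost it without CAA replicate 3 (0.0520) and with the block (0.0911), and ENSCAFG00000017109 with the block (0.0729). With the block ENSCAFG00000010628 was also 2.58 for COSCC against gingiva (edgeR adjusted p 0.0728). The cause was not tested for any of these.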
